A study of Mus musculus with 8 samples.

Results

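The intercalated disc and costamere genes are 38 genes that encode the contacts of cardiomyocytes with each other and with the surrounding matrix, as well as the proteins that anchor these contacts to the cytoskeleton. The genes were listed by symbol for their role, with earlier results of these data known, and all 38 were found among the 46040 genes counted. RNA was sequenced from the LVs of male C57BL/6 mice aged 5 to 7 months after angII was infused by subcutaneous minipump (0.1 mg/kg/h) until day 14, with 8 libraries in all. The control-tagged group holds 4 libraries of wildtype littermates, and the VEGFR-1 TK-/- tagged group, called TK-/- here, holds 4 libraries of mice in which *Flt1*, the gene of VEGFR-1, lacks the part for the intracellular tyrosine kinase domain in every cell. Both groups received angII, so that no library shows the genes without pressure overload, and all hearts came from animals that survived to day 14. The groups follow the library names and genotype tags, while the sample titles give each library the other genotype, so that every direction below is the opposite if the titles are right. The labels do not say that each library is a separate animal, and p-values therefore measure the spread between these libraries.

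The intercalated disc joins cardiomyocytes end to end. Its gap junctions are channels of connexins that pass the electrical impulse, its desmosomes couple the membrane to desmin filaments, and its adherens junctions couple N-cadherin through catenins to actin. Costameres are the lateral counterpart, where integrins and the dystrophin complex connect the Z-discs to the extracellular matrix and carry force across the membrane. Mutations of desmosomal genes are known for arrhythmogenic cardiomyopathy, and mutations of the dystrophin complex for muscular dystrophies with heart involvement. The members were grouped by role into connexins, desmosomal proteins, adherens junction proteins, actin linkers, scaffolds and other disc proteins, the dystrophin complex, integrin adaptors, and caveolin and repair proteins of the sarcolemma.

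Each library held 11449137 to 16239670 counts on genes, and 37 of the 38 members had at least 4 counts in every library. Control-tagged replicate 3 stood apart as the highest library for 16 of 37 members (43.2%, beside 22.1% of all genes). It was the lowest for 9 (24.3%), which is near the 23.2% of all genes. Levels are given as normalized CPM, the count relative to the TMM-scaled library size, and a log2 fold change is positive where the TK-/- libraries are higher than the control-tagged ones. Leaving out control-tagged replicate 3 changed this log2 value by a factor of more than 1.5, or turned its sign, in 21 of the 37 members. Leaving out any 1 library did so in 28. Where the log2 fold change is near 0, a small shift is enough for this. The share over all genes was not counted, so that these counts show nothing particular to the members. *Flt1*, the targeted gene, measured 56.9 to 84.3 normalized CPM in the control-tagged and 143.5 to 169.6 in the TK-/- libraries, but counts per gene cannot show which transcripts lack the kinase domain and leave the contradiction of the labels as it is. The sample labels give the material as LV tissue, while the library names read cardiomyo. In the markers, 7 of 7 for cardiomyocytes were measured with summed levels of 48441 to 82342 normalized CPM per library, and all 5 for endothelium (987 to 1386), all 5 for mural cells (755 to 1604) and all 5 for fibroblasts (453 to 1108) were measured too, while the summed markers of atrium (3.68 to 5.90), skeletal muscle (0.560 to 1.67) and adipocytes (0 to 1.35) were near 0.

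Per kb of exon, *Sgca*, the α-sarcoglycan of the dystrophin complex, was the most abundant member at 106 normalized CPM per kb. It was followed by *Dsp*, the desmoplakin that ties desmosomes to desmin, at 87.4, by *Ctnna1*, the αE-catenin of adherens junctions, at 80.7, by *Cav3*, the muscle caveolin, at 80.3 and by *Jup*, the plakoglobin, at 64.1. This length is the union of all exons of a gene, and with the longest transcript in its place *Ctnna1* (139) and *Jup* (129) came before *Sgca* (106), *Gja1* (89.5) and *Dsp* (88.0). The order of the levels was close at nearly every step. Over the 8 libraries, the ranges of neighbours in that order overlapped except between *Dysf* (18.7) and *Gja4* (9.86), between *Sgcd* (1.08) and *Sntb1* (0.292), and between *Sntb1* and *Pkp1*. *Pkp1*, a plakophilin best known from epidermal desmosomes, had 0 counts in all 8 libraries, which with a floor of 3 counts per library allows up to 0.202 to 0.266 normalized CPM. The median level of the 37 measured members was 19 normalized CPM per kb against 4.15 over 13513 tested genes with a length, and 20 of the 37 lay above the 75th percentile of these genes (12). These levels are over the bulk tissue, in which fewer cells of a type and less RNA per cell cannot be told apart.

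**Figure D1:**
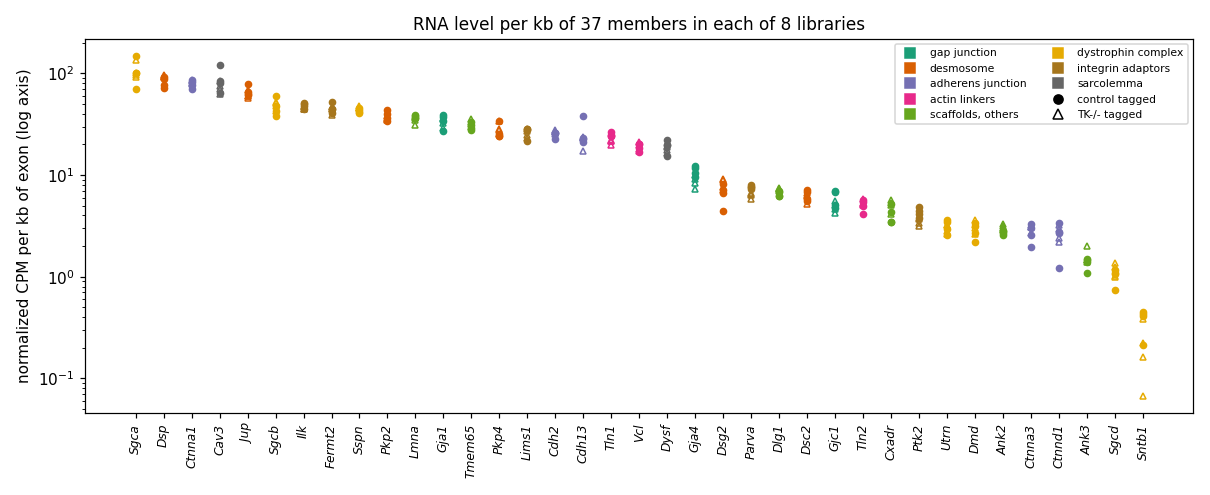
RNA levels of the 37 measured members in each of the 8 libraries, as normalized CPM per kb of exon on a log axis, in descending order of the mean. Filled circles are control-tagged and open triangles TK-/- libraries, and colors give the role; the points run from 149 for *Sgca* down to 0.0667 for *Sntb1*, with steps without overlap only after *Dysf* and before *Sntb1*.

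To test whether the loss of VEGFR-1 signaling during pressure overload altered the RNA of these structures, the groups were compared with edgeR's quasi-likelihood test over all 13542 genes that passed the filter on low counts, 37 members among them. None of the 37 members was called at an FDR under 0.1 and a fold change of at least 1.5, where 0.00738% of all genes, *Flt1* alone, was called. The likelihood ratio test, with 0.391% of all genes called, and DESeq2, with 0.236%, also called 0 members. The lowest FDR of a member was 0.453 and the highest 0.989. An unadjusted p under 0.05 was found for 4 members (10.8%) against 8.96% of all genes, and all 4 were lower in the TK-/- libraries, namely *Gja4*, *Parva*, *Ptk2* and *Tln1*. Lower genes made up 5.64% and higher genes 3.32% of all genes at that p. This share of members is near the background.

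The members were balanced in direction. Of the 37, 19 had a positive and 18 a negative log2 fold change, with a median of 0.0095 beside −0.0012 over all genes tested. The log2 fold changes ranged from −0.83 for *Sntb1* to 0.31 for *Dsg2*, and their median absolute value was 0.11 against 0.13 over all genes. The 95% interval of the difference lay inside 1.5-fold in either direction for 30 of the 37 members (81.1%) and for 64.8% of all genes, so that for these 30 members a difference of 1.5-fold or more lies outside the interval. The 7 members with intervals that reached past 1.5-fold were *Gja4*, *Dsg2*, *Cdh13*, *Ctnnd1*, *Cxadr*, *Sntb1* and *Cav3*. In 6 members (16.2%) the groups did not overlap, against 4.98% of all genes. *Parva*, *Ptk2* and *Tln1* were lower, beside 2.53% of all genes, and *Ank2*, *Dlg1* and *Dsp* were higher, beside 2.46% of all genes. The gap between the groups was 9.87% for *Parva* and 8.54% for *Tln1*, but 0.621% for *Ptk2*, 0.297% for *Ank2*, 0.224% for *Dsp* and 0.0494% for *Dlg1*, all as a share of the higher value of the lower group. With total counts in place of TMM, 3 of the 6 members, *Parva*, *Tln1* and *Ank2*, had groups without overlap. *Ank2* overlapped with RLE size factors and with DESeq2, and *Dlg1* with filterByExpr. *Parva* and *Tln1* were the only members without overlap in every alternative.

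**Figure D2:**
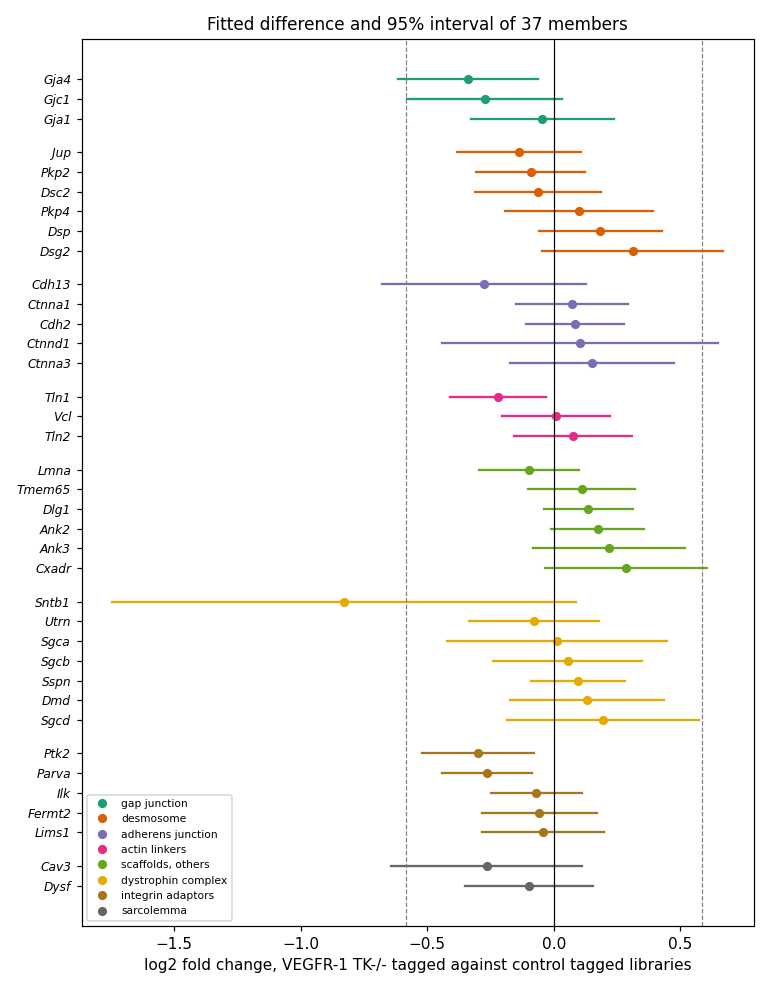
Fitted log2 fold change of the 37 tested members, TK-/- against control-tagged libraries (4 per group), with the 95% interval as a horizontal bar and colors by role. Dashed lines mark 1.5-fold; the points lie between −0.83 and 0.31, the connexins and integrin adaptors all left of 0, and 30 of the 37 intervals stay between the dashed lines.

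The connexins form the channels of gap junctions, and all 3 connexins among the members had a negative log2 fold change (median −0.27). Of the connexins outside the members, *Gja3* was at 0.09 (FDR = 0.887) and *Gja5* at −0.46 (FDR = 0.561). *Gja4* (ENSMUSG00000050234, chromosome 4, 127311421 to 127314039, minus strand), connexin 37, is known from the endothelium of arteries rather than from cardiomyocytes, and measured 16.2, 19.8, 20.4 and 17.8 normalized CPM in the control-tagged replicates 1 to 4 and 16.8, 12.3, 14.2 and 15.4 in the TK-/- replicates 1 to 4. The groups overlapped through control-tagged replicate 1 and TK-/- replicate 1, while the other 3 libraries of each group were apart. The means were 18.6 ± 1.93 against 14.7 ± 1.93 (SD, n = 4 each), with a log2 difference of −0.34 (SE 0.13, unadjusted p = 0.0207, FDR = 0.505; 2-sided exact permutation p = 0.0571). This was the largest difference relative to the control among the 4 members with an unadjusted p under 0.05, and it rests on 138 to 304 counts per library.

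*Gja1* (ENSMUSG00000050953, chromosome 10, 56377330 to 56402513, plus strand), connexin 43, is the main connexin of the working ventricle. Its levels were 382, 352, 400.4 and 280.3 normalized CPM in the control-tagged and 366, 335, 296 and 374 in the TK-/- replicates 1 to 4. Control-tagged replicate 4 was the lowest and control-tagged replicate 3 the highest of the 8 libraries, so that the TK-/- values lay within the control range. Its log2 fold change of −0.04 (SE 0.13, 95% interval −0.33 to 0.24, FDR = 0.940) did not pass the test, and its sign turned positive without control-tagged replicate 3 or without TK-/- replicate 3. *Gjc1*, connexin 45 of the conduction system, had 21.3 to 34.5 normalized CPM and a log2 fold change of −0.27 (SE 0.14, FDR = 0.600).

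As a share of the RNA of these 3 connexins per kb of exon, *Gja1* made up 72.1, 64.8, 69.3 and 61.2% in the control-tagged replicates 1 to 4 and 70.3, 73.9, 68.8 and 71.3% in the TK-/- replicates 1 to 4. The groups overlapped (66.8% ± 4.85 against 71.1% ± 2.14, SD, n = 4 per group). The union of exons of *Gja1* is 10257 bases, longer than its longest transcript of 3889 bases, and with the longest transcript of each gene the mean share over the 8 libraries was 83.3% in place of 69.0%.

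In the desmosomes, 3 of 6 measured members had a positive log2 fold change and none had an unadjusted p under 0.05. *Dsp* (ENSMUSG00000054889, chromosome 13, 38151294 to 38198577, plus strand) had the highest level per kb of exon union among them, though *Jup* did with the longest transcripts, and measured 842, 750.3, 689 and 880.0 normalized CPM in the control-tagged and 882, 902, 925 and 882 in the TK-/- replicates 1 to 4. The TK-/- libraries lay closely together above the whole control-tagged group, whose replicates spread from 689 to 880.0. The means were 790.3 ± 86.8 against 898 ± 20.2 (SD, n = 4 each), with a log2 difference of 0.18 (SE 0.11, unadjusted p = 0.125, FDR = 0.646; 2-sided exact permutation p = 0.0286, the minimum for 4 libraries against 4). Without control-tagged replicate 3, the lowest of its group, the log2 fold change was 0.12.

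The desmosomal cadherins are the adhesive proteins across the cell gap. *Dsg2*, desmoglein 2, had the highest log2 fold change of all members (0.31, SE 0.16, 95% interval −0.05 to 0.67, FDR = 0.608), with 36.7 to 67.6 normalized CPM in the control-tagged and 59.2 to 75.2 in the TK-/- libraries. Control-tagged replicate 2 was its lowest library, and without it the log2 fold change was 0.16. Its partner *Dsc2*, desmocollin 2, had a log2 fold change of −0.06 (SE 0.11). *Dsg2* made up 44.4% to 54.4% of the RNA of this pair per kb in the control-tagged and 52.1% to 59.4% in the TK-/- libraries, ranges that overlapped. The armadillo proteins *Jup* (−0.14), *Pkp2* (−0.09) and *Pkp4* (0.10), which link the cadherins to desmoplakin, had log2 fold changes with intervals that included 0. Without control-tagged replicate 3, those of *Jup* and *Pkp2* were −0.06 and −0.03. *Pkp4* was at 0.0087 without TK-/- replicate 2 and at 0.24 without control-tagged replicate 4, its highest library.

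In the adherens junctions, *Ctnna1* (ENSMUSG00000037815, chromosome 18, 35118859 to 35254779, plus strand) was the member with the highest level per kb. It measured 499, 453, 523 and 548 normalized CPM in the control-tagged and 557, 518, 543 and 508 in the TK-/- replicates 1 to 4. The groups overlapped, and the log2 fold change was 0.07 (SE 0.10, 95% interval −0.15 to 0.29). *Ctnna1* made up 96.1% to 97.3% of the α-catenin RNA per kb in every library, the rest being *Ctnna3*, the αT-catenin of the heart. *Cdh2*, the N-cadherin that carries the junction, had 184 to 226 normalized CPM and a log2 fold change of 0.08 (SE 0.088).

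*Cdh13*, T-cadherin, which is anchored by a lipid and has no catenin binding tail, was the only adherens member with a negative log2 fold change (−0.28, SE 0.18, FDR = 0.687). It was at 428 normalized CPM in control-tagged replicate 3 and at 192 to 266 in the other 7 libraries, and without that replicate its log2 fold change was −0.05. *Ctnnd1*, the p120 catenin, shared 4482 exon bases with the annotated gene *Gm28635* on the same strand, which had 0 counts, so that the level of *Ctnnd1* (132 to 337 counts) depends on how reads on both genes were counted, which is not stated. Its log2 fold change of 0.10 had a 95% interval of −0.44 to 0.65, the second widest after *Sntb1*.

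Talins and vinculin connect integrins and cadherins with actin, in costameres as well as in discs. *Tln1* (ENSMUSG00000028465, chromosome 4, 43531519 to 43562691, minus strand), the talin of most cell types, measured 237, 244, 259.5 and 238 normalized CPM in the control-tagged and 214, 194, 219 and 213 in the TK-/- replicates 1 to 4. Every TK-/- library was below every control-tagged library, TK-/- replicate 2 being the lowest. The means were 245 ± 10.4 against 210.0 ± 10.7 (SD, n = 4 each), with a log2 difference of −0.22 (SE 0.087, unadjusted p = 0.0272, FDR = 0.513; 2-sided exact permutation p = 0.0286). *Tln1* shares 360 exon bases with *Creb3* on the other strand (log2 fold change −0.17), and the strand setting of the counting is not stated.

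*Tln2* (ENSMUSG00000052698, chromosome 9, 67217087 to 67559703, minus strand), the talin best known from striated muscle, measured 91.0, 75.6, 104 and 98.8 normalized CPM in the control-tagged and 94.7, 92.3, 106 and 96.4 in the TK-/- replicates 1 to 4. Its groups overlapped, with a log2 fold change of 0.08 (SE 0.11, 95% interval −0.16 to 0.31). As a share of talin RNA per kb, *Tln1* made up 83.0, 85.8, 82.4 and 81.8% in the control-tagged replicates 1 to 4 and 80.9, 79.8, 79.5 and 80.5% in the TK-/- replicates 1 to 4. These shares did not overlap between the groups (83.3% ± 1.74 against 80.2% ± 0.651, SD, n = 4 per group), also with the longest transcript of each gene, and *Tln1* was the only 1 of 8 such shares within families without overlap. *Vcl*, vinculin, had 138 to 171 normalized CPM and a log2 fold change of 0.01 (SE 0.097), which turned to −0.0091 with total counts. It shares 2090 exon bases with *Ap3m1* on the other strand (445 to 595 counts), so that its level too depends on the strand setting.

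**Figure D3:**
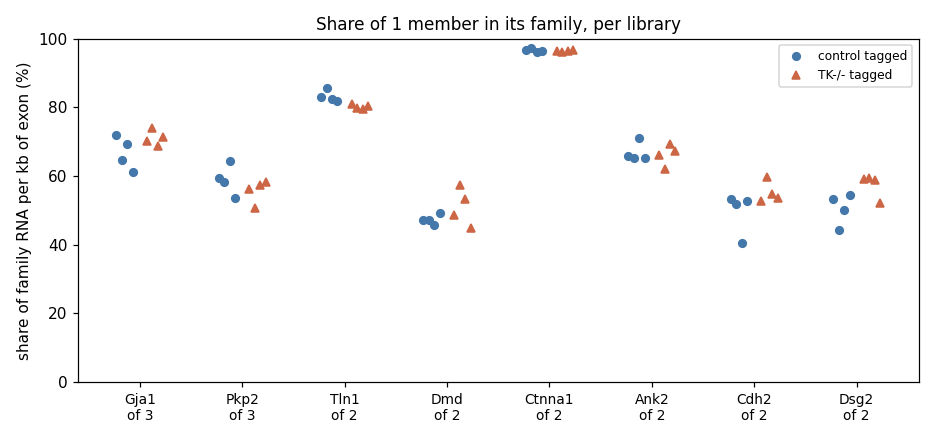
Share of 1 member in the summed RNA of its family, in percent of normalized CPM per kb of exon, for 8 families of 2 or 3 members. Circles are control-tagged and triangles TK-/- libraries, in replicate order; only the *Tln1* shares (81.8% to 85.8% against 79.5% to 80.9%) do not overlap between the groups.

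Among the scaffolds and other disc proteins, 5 of 6 members had a positive log2 fold change (median 0.16). In 2 of the 6 the groups did not overlap, with higher TK-/- levels, beside 2.46% of all genes. *Ank2* (ENSMUSG00000032826, chromosome 3, 126921612 to 127499350, minus strand), the ankyrin that places ion exchangers and pumps in the membrane, measured 99.4, 90.7, 93.9 and 98.7 normalized CPM in the control-tagged and 99.7, 115, 112 and 106 in the TK-/- replicates 1 to 4. Control-tagged replicate 1 and TK-/- replicate 1 nearly met, while the other TK-/- libraries were higher. The means were 95.7 ± 4.10 against 108 ± 6.69 (SD, n = 4 each), with a log2 difference of 0.17 (SE 0.084, unadjusted p = 0.0611, FDR = 0.576; 2-sided exact permutation p = 0.0286).

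*Dlg1* (ENSMUSG00000022770, chromosome 16, 31663443 to 31875129, plus strand), the SAP97 scaffold of potassium and sodium channels, measured 72.8, 75.1, 67.1 and 67.1 normalized CPM in the control-tagged and 77.8, 77.9, 79.2 and 75.2 in the TK-/- replicates 1 to 4. The lowest TK-/- library and the highest control-tagged library differed by 0.0494%, so that the order of these 2 libraries decides the lack of overlap. The means were 70.5 ± 4.06 against 77.5 ± 1.71 (SD, n = 4 each), with a log2 difference of 0.14 (SE 0.080, FDR = 0.640). *Ank3*, ankyrin G, which binds the cardiac sodium channel, had a log2 fold change of 0.22 (SE 0.14) that was 0.081 without TK-/- replicate 2, its highest library. *Cxadr*, the coxsackievirus and adenovirus receptor of cell junctions, had one of 0.29 (SE 0.15). *Cxadr* shares 695 exon bases with *Btg3* on the other strand (29 to 53 counts).

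*Lmna* (ENSMUSG00000028063, chromosome 3, 88480147 to 88509956, minus strand), lamin A/C of the nuclear envelope, had the highest level per kb in this group although it is no protein of the disc itself. Its 210.3, 213, 226 and 221 normalized CPM in the control-tagged and 201, 182, 216 and 213 in the TK-/- replicates 1 to 4 overlapped. The log2 fold change was −0.10 (SE 0.090, 95% interval −0.30 to 0.10). *Tmem65*, a membrane protein of the disc that was linked to connexin 43, had a log2 fold change of 0.11 (SE 0.097).

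The dystrophin complex connects actin with laminin through the membrane, and none of its 7 members had an unadjusted p under 0.05 or groups without overlap. *Sgca* (ENSMUSG00000001508, chromosome 11, 94962791 to 94976327, minus strand) measured 175, 122, 258 and 175 normalized CPM in the control-tagged and 166, 175, 235 and 161 in the TK-/- replicates 1 to 4. The control-tagged group spread from 122 in replicate 2 to 258 in replicate 3, a range that held all TK-/- libraries. Its log2 fold change was 0.01 (SE 0.20, 95% interval −0.42 to 0.45), and its sign turned in 4 of the 8 fits that left out a library. *Sgcb* (0.05) and *Sgcd* (0.20), the β- and δ-sarcoglycans, and *Sspn* (0.09), sarcospan, had positive log2 fold changes with intervals that included 0. *Sgcb* and *Sgcd* were at 0.19 and 0.064 when control-tagged replicate 3 was left out.

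*Dmd* (ENSMUSG00000045103, chromosome X, 82948870 to 85206141, plus strand), dystrophin, measured 63.6, 75.8, 52.1 and 79.6 normalized CPM in the control-tagged and 71.7, 85.3, 76.4 and 63.1 in the TK-/- replicates 1 to 4. Its paralog *Utrn* (ENSMUSG00000019820, chromosome 10, 12382188 to 12869365, minus strand), utrophin, which can take the place of dystrophin at the membrane, measured 50.9, 61.2, 44.4 and 58.8 in the control-tagged and 54.6, 45.4, 48.0 and 55.6 in the TK-/- replicates. Both genes overlapped between the groups, and both were at a like level, 2.98 for *Dmd* and 3.06 for *Utrn* as normalized CPM per kb of exon union. With the longest transcripts the order turned, at 4.76 for *Dmd* and 4.23 for *Utrn*. The log2 fold changes were 0.13 (SE 0.14) for *Dmd* and −0.08 (SE 0.12) for *Utrn*. Both genes were lowest in control-tagged replicate 3, without which the values were 0.02 for *Dmd* and −0.16 for *Utrn*. *Dmd* made up 45.7% to 49.3% of the RNA of the pair in the control-tagged and 44.9% to 57.5% in the TK-/- libraries.

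*Sntb1*, β1-syntrophin, had the lowest log2 fold change of the members (−0.83, SE 0.42, 95% interval −1.74 to 0.09, FDR = 0.594). It rests on 4 to 34 counts per library, with 1.12 to 2.40 normalized CPM in the control-tagged and 0.355 to 2.03 in the TK-/- libraries. Without TK-/- replicate 2, the library with 4 counts, the log2 fold change was −0.55, and without control-tagged replicate 1 it was −1.03. It was −1.28 (unadjusted p = 0.0112, FDR = 0.521) without TK-/- replicate 1, the highest of its group. *Sntb1* had an unadjusted p under 0.05 in 4 of the 16 alternatives, and its FDR ranged from 0.464 to 0.946 over those that gave one.

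The integrin adaptors assemble behind the β1-integrins of costameres, and all 5 had a negative log2 fold change (median −0.070). In 2 of the 5 the groups did not overlap, with lower TK-/- levels, beside 2.53% of all genes. *Parva* (ENSMUSG00000030770, chromosome 7, 112427505 to 112591692, plus strand), α-parvin, binds the integrin-linked kinase and actin, and measured 73.7, 80.2, 76.7 and 77.9 normalized CPM in the control-tagged and 67.0, 65.7, 59.3 and 65.0 in the TK-/- replicates 1 to 4. All 4 TK-/- libraries were below all control-tagged libraries, and neither group had a library far from the others except TK-/- replicate 3, the lowest. The means were 77.1 ± 2.72 against 64.3 ± 3.39 (SD, n = 4 each), with a log2 difference of −0.26 (SE 0.081, unadjusted p = 0.00708, FDR = 0.453; 2-sided exact permutation p = 0.0286). This FDR was the lowest of the members, and over the 16 alternatives it ranged from 0.162 to 0.941.

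*Ptk2* (ENSMUSG00000022607, chromosome 15, 73205102 to 73423280, minus strand), the focal adhesion kinase that signals from integrins under load, measured 44.9, 52.1, 57.0 and 49.1 normalized CPM in the control-tagged and 40.1, 37.1, 43.3 and 44.6 in the TK-/- replicates 1 to 4. The lowest control-tagged library, replicate 1, was just above the highest TK-/- library, replicate 4. The means were 50.8 ± 5.10 against 41.3 ± 3.38 (SD, n = 4 each), with a log2 difference of −0.30 (SE 0.10, unadjusted p = 0.0121, FDR = 0.468; 2-sided exact permutation p = 0.0286). *Parva* and *Ptk2* had an unadjusted p under 0.05 in all 16 alternatives, *Gja4* in 14 and *Tln1* in 12. Without TK-/- replicate 2, *Parva* and *Ptk2* were the only members with such a p, since *Gja4* (log2 fold change −0.27, unadjusted p = 0.0638) and *Tln1* (−0.19, unadjusted p = 0.0768) were no longer under it.

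*Ilk* (ENSMUSG00000030890, chromosome 7, 105736592 to 105742925, plus strand), the integrin-linked kinase that forms a complex with parvin and PINCH, had the highest level of the adaptors per kb of exon union (47.1, beside 44.6 for *Fermt2*, in overlapping ranges), an order that turned with the longest transcripts (56.8 against 70.2). It measured 123, 136, 129.9 and 140.3 normalized CPM in the control-tagged and 129.5, 123, 122 and 129.6 in the TK-/- replicates 1 to 4. The groups overlapped, and the log2 fold change was −0.07 (SE 0.082, 95% interval −0.25 to 0.11). *Ilk* shares 2106 exon bases with *Taf10* on the other strand, so that its level depends on the strand setting. *Lims1*, the PINCH of this complex, and *Fermt2*, kindlin 2, had log2 fold changes of −0.04 (SE 0.11) and −0.06 (SE 0.10).

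**Figure D4:**
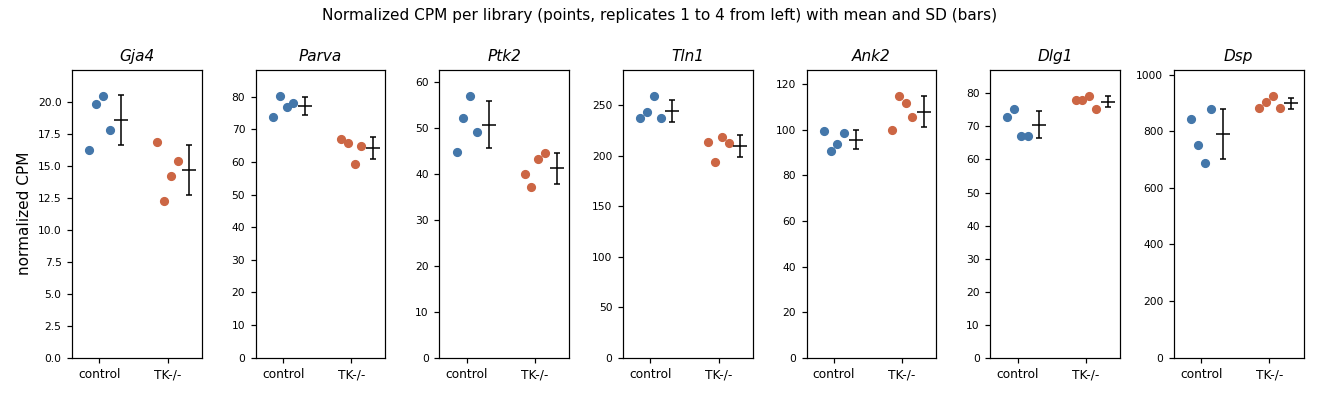
Normalized CPM of the 7 members with an unadjusted p under 0.05 or with groups that did not overlap, in each library (points, replicates 1 to 4 from left) with the mean and SD of 4 libraries (bars); the axes start at 0. *Gja4*, *Parva*, *Ptk2* and *Tln1* have lower and *Ank2*, *Dlg1* and *Dsp* higher means in the TK-/- libraries. The groups overlap in *Gja4* and are nearly in contact in *Ptk2*, *Ank2*, *Dlg1* and *Dsp*.

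At the sarcolemma, *Cav3* (ENSMUSG00000062694, chromosome 6, 112459505 to 112472872, plus strand), which forms the caveolae of muscle cells, measured 97.3, 74.5, 141 and 92.7 normalized CPM in the control-tagged and 72.0, 87.8, 96.9 and 80.8 in the TK-/- replicates 1 to 4. Control-tagged replicate 3 was far above the other 7 libraries. The log2 fold change was −0.27 (SE 0.17, 95% interval −0.64 to 0.11, FDR = 0.676), and −0.07 without this library. *Dysf*, dysferlin, which reseals the membrane after injury, had a log2 fold change of −0.10 (SE 0.12).

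The 250 bases before the transcription start are shown for *Dsp*, with groups that did not overlap and a higher level in the TK-/- libraries, and for *Gja4*, the connexin with a lower level, as the 2 of the 7 singled-out members that had 1 start in the RefSeq table (GRCm38.p6) and no exon of a coding gene in this window. Capitals mark GC boxes (GGGCGG on either strand), the binding letters of Sp factors. The *Dsp* window lies at chr13:38151044-38151293 on the plus strand and the *Gja4* window at chr4:127314040-127314289 on the minus strand.
Dsp: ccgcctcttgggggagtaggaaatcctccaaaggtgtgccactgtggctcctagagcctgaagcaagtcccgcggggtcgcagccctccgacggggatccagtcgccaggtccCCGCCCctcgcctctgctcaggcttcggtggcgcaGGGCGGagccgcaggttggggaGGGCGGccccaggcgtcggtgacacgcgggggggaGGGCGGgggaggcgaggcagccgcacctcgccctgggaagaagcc
Gja4: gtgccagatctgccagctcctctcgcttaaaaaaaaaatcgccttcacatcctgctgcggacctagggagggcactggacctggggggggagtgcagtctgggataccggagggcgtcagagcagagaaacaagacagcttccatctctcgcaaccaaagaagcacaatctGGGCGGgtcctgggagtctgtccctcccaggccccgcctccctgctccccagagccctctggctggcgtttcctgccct
The *Dsp* window held 4 GC boxes and the *Gja4* window 1, and the GC content was 72.4% and 61.2% beside a median of 52.4% over all 32851 windows of the table. Neither window held any of the other motifs searched on both strands, which were the TATA box, the M-CAT element, the GATA motif, the CArG box and the MEF2 motif. A match is a description of letters and shows no binding.

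Of the 38 members, 23 had entries in this table, 40 windows in all, in which motif letters can overlap. GC boxes were found in 40.0% of the member windows and in 32.7% of all windows. A CArG box, the letters bound by serum response factor, was in 7.5% of the member windows, those of *Dmd*, *Fermt2* and *Vcl*, and in 1.47% of all windows. The TATA box (TATAAA) was in 17.5% against 12.4%. The M-CAT element (CATTCC) was in 12.5% against 12.6%, and the GATA motif (AGATAA) in 5% against 9.99%. No member window held the MEF2 motif (0.508% of all windows). Windows of the same gene share sequence and were not tested.

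The members also differed between libraries of the same group. Control-tagged replicate 3 was the highest library for 16 of the 37 members (43.2%), where it was the highest for 22.1% of all genes, and it was the lowest for 9 members (24.3% against 23.2% of all genes), which is near the background. Control-tagged replicate 2 was the lowest for 11 members (29.7% against 18.8% of all genes). In control-tagged replicate 3, the 18 members with shorter exons lay at a median of 0.21 above their gene mean on the log2 scale, and the 19 with longer exons at −0.11. Its deviation had a correlation with log exon length of r = −0.44 over the 37 members and −0.05 over 13513 genes, as a description across genes that share 1 library. The cause was not tested. The median coefficient of variation of the members was 12.2% in the control-tagged and 8.29% in the TK-/- group. Without control-tagged replicate 3, 5 members had an unadjusted p under 0.05, the 4 named and *Gjc1*, and *Dlg1* no longer had groups without overlap. The share of all genes without that library was not counted.

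**Figure D5:**
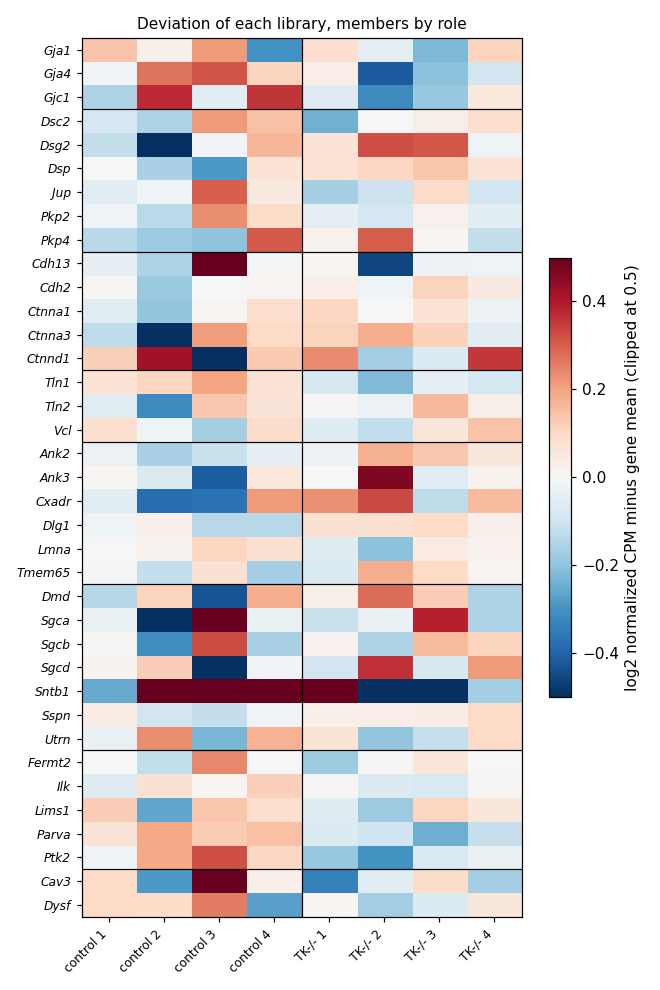
Deviation of each library (columns, 4 control-tagged then 4 TK-/-) from the gene mean for the 37 members (rows, by role), as log2 normalized CPM with colors clipped at 0.5 in either direction. Control-tagged replicate 3 is the highest library in 16 rows (43.2%, beside 22.1% of all genes) and the lowest in 9 (24.3%, near the 23.2% of all genes). The rows of *Parva*, *Ptk2* and *Tln1* are red in all control-tagged and blue in all TK-/- columns except for *Ptk2* in control-tagged replicate 1.

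The summed markers of endothelial, mural, fibroblast, leukocyte and red cells all had lower means in the TK-/- libraries, as did *Gja4*, *Parva*, *Ptk2* and *Tln1*. The summed level of 5 endothelial markers was 1083 to 1386 normalized CPM in the control-tagged and 987 to 1117 in the TK-/- libraries, and 3 of the 5 (*Pecam1*, *Cdh5* and *Tie1*) had an unadjusted p under 0.05. The summed level of 5 mural markers was 1102 to 1604 against 755 to 1220, with 2 of the 5 (*Pdgfrb* and *Rgs5*) under that p. The 5 fibroblast markers summed to 760.3 to 1108 against 453 to 975, the 4 leukocyte markers to 38.6 to 54.7 against 30.3 to 49.2, and the 4 red cell markers to 295 to 734 against 342 to 574. These 5 sums overlapped between the groups. Within these lists, *Kdr* (log2 fold change 0.01) of endothelium, *Tagln* (0.0014) of mural cells and *Cd3e* (0.43) of leukocytes were higher instead. No marker of these lists was at 0, and none was called. Control-tagged replicate 1 had the lowest endothelial and mural sums of its group and the lowest *Gja4*, *Parva*, *Ptk2* and *Tln1*. Its *Tln1* nearly tied with that of replicate 4 (237.3 against 237.6 normalized CPM). Among the TK-/- libraries, replicate 2 was the lowest in both sums, *Gja4*, *Ptk2* and *Tln1*, but *Parva* was lowest in replicate 3. Replicate 4 was the highest in both sums and *Ptk2*, while *Gja4* and *Parva* were highest in replicate 1 and *Tln1* in replicate 3. The part of these cell types in the members' values was not tested. The 7 cardiomyocyte markers summed to 48441 to 72328 in the control-tagged and 62215 to 82342 in the TK-/- libraries. Of the 7, 6 had a positive log2 fold change and *Actn2* (−0.08) a negative one. *Tnni3* (log2 fold change 0.36) and *Pln* (0.32) had an unadjusted p under 0.05 and were higher, *Pln* without overlap of the groups.

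The lists of other genes of the same structures held 50 genes, of which 48 were tested, *Pkp3* and *Nos1* being below the filter. None was called, and 4 (8.33%, beside 8.96% of all genes) had an unadjusted p under 0.05, all with lower levels in the TK-/- libraries. *Flnc*, filamin C of Z-discs and costameres, measured 989.6, 800.0, 1087 and 860.1 normalized CPM in the control-tagged and 613, 624, 839 and 798 in the TK-/- replicates 1 to 4. The groups overlapped, and the log2 fold change was −0.38 (SE 0.15, unadjusted p = 0.0235, FDR = 0.506). *Afdn*, the afadin that ties nectins to actin, measured 85.0, 102, 100.1 and 92.5 normalized CPM in the control-tagged and 87.9, 78.0, 65.7 and 71.8 in the TK-/- replicates 1 to 4, with a log2 difference of −0.32 (SE 0.11, FDR = 0.468).

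*Cav1* is a caveolin known from endothelial cells among others, and *Cavin1* coats caveolae in muscle cells as well. *Cav1* measured 363, 501, 423 and 479 normalized CPM in the control-tagged and 351, 314, 327 and 377 in the TK-/- replicates 1 to 4, and *Cavin1* had 376 to 485 in the control-tagged and 329.8 to 384 in the TK-/- libraries. Their log2 fold changes were −0.37 (SE 0.12, FDR = 0.464) and −0.27 (SE 0.11, FDR = 0.521). *Tmem43*, a membrane protein known from arrhythmogenic cardiomyopathy, was the only gene of these lists without overlap of the groups. This is 2.08% of the 48 tested, below the 4.98% of all genes. It measured 39.5, 43.6, 40.6 and 41.1 normalized CPM in the control-tagged and 37.1, 35.8, 33.8 and 39.2 in the TK-/- replicates 1 to 4. The log2 difference was −0.18 (SE 0.085, unadjusted p = 0.0634, FDR = 0.581, with a 2-sided exact permutation p = 0.0286). By list, 11 of 13 other disc genes, 11 of 16 other costamere genes, 7 of 11 other dystrophin complex genes and 7 of 8 caveola and repair genes had a negative log2 fold change. Together these were 36 of 48 (median −0.10), where 50.3% of all genes were lower. The lists were written with earlier results of these data known, and genes measured in the same libraries are not replicates. These counts are a description and were not tested.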

How the data were processed

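LV RNA was sequenced in 8 libraries, 4 per group. The authors used Trim Galore 0.4.4 for trimming, STAR 2.5.4b for alignment to GRCm38 and featureCounts on the genes of GENCODE M16, and deposited raw whole-number counts per gene. The labels name depletion of ribosomal RNA and the paper poly-A selection. The paper names a stranded library kit and a limit on the alignments per read in STAR. How the counting itself treated strand and reads with several alignments is not given in the sources used here.

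Genes entered the tests when at least 2 libraries reached a CPM of 1. Differences were tested with edgeR 4.0.16 in R 4.3.3 (TMM factors, quasi-likelihood F test, no covariates), with Benjamini-Hochberg adjustment across all tested genes (FDR). Alternatives were edgeR's likelihood ratio test, DESeq2 1.42.0, robust dispersion, RLE size factors, total counts, no filter and filterByExpr. The replicate block and leaving out each library were alternatives too. The study used the likelihood ratio test in an older edgeR release. Fits were tested on simulated data. Normalized CPM is scaled to the counts on tested genes, and log2 values use a prior count of 2. Exact permutation tests are 2-sided over 70 splits. Exon lengths and coordinates are from GENCODE M21 (GRCm38), and RefSeq promoters were matched by symbol. In the deposited table, 7 listed genes have older names and were matched by identifier.

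Members with an unadjusted p under 0.05, members without overlap of the groups, the member of each role with the highest level per kb of exon union, and the paralogs *Tln2*, *Dmd* and *Utrn* are given with every library, and other members by counts and single values. The members and lists were chosen with earlier results of these data known. Counts per library lay between 11449137 and 16239670, and 36 of the 37 tested members had at least 90 counts in every library, *Sntb1* being the exception.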

Additional observations from a re-analysis of the deposited data

Results flagged for a closer look

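In groups of 4 libraries, 7 of 74 groups of member values (9.46%) had 1 library whose gap to the nearest of the others was large against the range of its group. The rule flags about 1 in 20 groups of independent values, but these groups come from the same 8 libraries. The share over all genes was not counted, so that 9.46% cannot be read as an excess in the members. These were *Pkp4* in control-tagged replicate 4, the highest of its group at 195 normalized CPM, *Cdh2* in control-tagged replicate 2, the lowest at 184, and *Lims1* in control-tagged replicate 2, the lowest at 106. *Cdh13* was set apart in both groups, by control-tagged replicate 3 at 428 and by TK-/- replicate 2 at 192. *Ank3* was highest in TK-/- replicate 2 at 70.0, and *Sspn* in TK-/- replicate 4 at 238. Control-tagged replicate 2 and TK-/- replicate 2 each account for 2 of the 7 values.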

How the results depend on the processing

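No member was called in any of the 16 alternatives. The number of all genes called was 53 with the likelihood ratio test, 32 with DESeq2 and 23 without a filter on low counts, in place of 1, and 1 to 3 when each library was left out in turn. The number of members with an unadjusted p under 0.05 was 2 to 6 when each library was left out, with 2 without TK-/- replicate 2. The number of members without overlap of the groups was 3 with total counts and 5 to 9 when each library was left out, with 9 without control-tagged replicate 1. The shares of all genes were not counted for these settings, and a smaller group separates more readily. These counts can therefore not be set against the 8.96% and 4.98% of all genes in the main fit. The share of *Gja1* in the RNA of the 3 connexin members was 83.3% with the longest transcripts and 68.3% to 70.1% when each library was left out. The cause of these differences was not tested. The median log2 fold change of the members lay between −0.04 and 0.03 over the alternatives.

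The sign of the log2 fold change turned in 16 of 592 values, in 9 members, and in none of the other 28. *Vcl* was at −0.0091 with total counts. When each library was left out, the values ranged from −0.044 to 0.048 for *Vcl*, from −0.12 to 0.0030 for *Dsc2*, from −0.13 to 0.0062 for *Lims1*, from −0.14 to 0.017 for *Gja1*, from −0.14 to 0.23 for *Sgca*, from −0.0074 to 0.13 for *Tln2*, from −0.033 to 0.19 for *Sgcb*, from −0.13 to 0.28 for *Ctnnd1* and from −0.11 to 0.015 for *Fermt2*.

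Libraries of the 2 groups that share a replicate number had deviations with correlations of −0.03, 0.03, 0.34 and −0.06, so that the numbers were not taken as pairs. With the replicate block, 1 gene and 0 members were called, and 4 members had an unadjusted p under 0.05, of which 3 were lower and 1 higher. The depth of 11449137 to 16239670 counts limits the precision for *Sntb1*, with 4 counts in 1 library. Each SE was derived from the quasi-likelihood test, as the absolute log2 fold change over the square root of its F statistic. The 95% intervals are this SE times a t quantile on either side. The intervals of the log2 fold changes include the spread between libraries as well as counting error. Reads of antisense and overlapping genes could not be separated.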
